A study of Mus musculus with 8 samples.

Results

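The 9 genes described here encode the muscle enzymes that build glycogen, the enzymes that break it down, and subunits that steer both. They were chosen by name, as Pygm, Gys1, Gbe1, Phka1, Phkb, Phkg1, Ugp2, Ppp1r3a and Ppp1r3c, and are 9 of the 21112 gene symbols that all 8 deposited matrices shared and that were analysed. The raw unique molecular identifier (UMI) counts came from single-nucleus RNA sequencing of the gastrocnemius, a calf muscle made mostly of fast fibres, of wild-type (WT) C57BL/6 mice. Young mice were 3 months old and Old mice 20 months old. The running experiment used middle-aged mice, given as 11 months old before the training, in both of its groups. Running mice were then trained on a treadmill for 2 months, and Sedentary mice were the untrained controls of that experiment. Each of the 4 groups had 2 libraries, of which 1 was made on the 10x Genomics platform and 1 belonged to a second set with another barcode format. How many animals went into a library, and whether the libraries of a group came from separate animals, was not given in the sources used here, so every p-value measures only the spread between these libraries.

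Glycogen is the glucose store of the muscle fibre. UDP-glucose pyrophosphorylase (Ugp2) makes the activated glucose from which glycogen synthase (Gys1) lengthens the chains, and the branching enzyme (Gbe1) adds the branch points. Glycogen phosphorylase (Pygm) releases glucose phosphate from the chains for glycolysis, and phosphorylase kinase, a complex that includes the regulatory subunits encoded by Phka1 and Phkb and the catalytic subunit encoded by Phkg1, switches phosphorylase on in response to calcium and adrenaline. Ppp1r3a and Ppp1r3c encode glycogen-targeting subunits that bring protein phosphatase 1 to the glycogen particle, where it reverses these phosphorylations and favours synthesis. Fast fibres are known for a high capacity to break glycogen down, and slow fibres for oxidative metabolism.

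On the mm10 build with the GENCODE vM21 annotation, Pygm spans chr19:6384399-6398459 on the plus strand, and Ppp1r3c lies on the same chromosome at chr19:36731731-36736653 on the minus strand. Gys1 is at chr7:45434844-45456619, Gbe1 at chr16:70313949-70569716 and Phkb at chr8:85840959-86061376, all on the plus strand. The minus strand carries Phka1 at chrX:102513975-102644246, Phkg1 at chr5:129863421-129898549, Ugp2 at chr11:21321138-21371201 and Ppp1r3a at chr6:14713977-14755274. The genes differ widely in length, from 4.92 kb for Ppp1r3c to 256 kb for Gbe1. UMI counts were not scaled by gene length, so levels are compared below between libraries and nuclei for 1 gene at a time and never between genes.

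RefSeq start sites (GRCm38.p6) were found for all 9 genes, with a second one for Ugp2. The 250 bases before the start site of 5 of them are printed 5′ to 3′ on the gene's strand, because these genes showed the contrasting patterns across fibre types described below. Pygm, Phka1 and Ppp1r3c were higher in Type IIb nuclei than in every other fibre type, Ppp1r3a was close between Type IIb and Type IIx, and Gys1 was lower in Type IIb. Capitals mark the E-box CANNTG and the MEF2 motif, searched as CTA and TAG with any 4 bases between them, on either strand. The E-box letters are read by basic helix-loop-helix factors in general, the myogenic ones among them, so a marked E-box is not by itself a myogenic site. The windows are chr19:6384158-6384407 for Pygm (plus strand), chrX:102644247-102644496 for Phka1 (minus strand), chr19:36736605-36736854 for Ppp1r3c (minus strand), chr6:14755275-14755524 for Ppp1r3a (minus strand) and chr7:45434589-45434838 for Gys1 (plus strand).
Pygm: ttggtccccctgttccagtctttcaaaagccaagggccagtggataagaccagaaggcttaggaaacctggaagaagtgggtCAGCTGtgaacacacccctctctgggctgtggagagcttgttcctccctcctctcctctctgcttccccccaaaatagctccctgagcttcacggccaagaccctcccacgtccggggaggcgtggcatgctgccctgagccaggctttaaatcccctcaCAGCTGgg
Phka1: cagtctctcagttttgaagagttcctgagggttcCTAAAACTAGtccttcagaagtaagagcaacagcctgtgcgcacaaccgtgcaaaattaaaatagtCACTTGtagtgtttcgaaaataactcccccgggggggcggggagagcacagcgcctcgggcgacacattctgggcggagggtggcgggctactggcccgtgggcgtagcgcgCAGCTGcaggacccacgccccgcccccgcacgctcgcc
Ppp1r3c: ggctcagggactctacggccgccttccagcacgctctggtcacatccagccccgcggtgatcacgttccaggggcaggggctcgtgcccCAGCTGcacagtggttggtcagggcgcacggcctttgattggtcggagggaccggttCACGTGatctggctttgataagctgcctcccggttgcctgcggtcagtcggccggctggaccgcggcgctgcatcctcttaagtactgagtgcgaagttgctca
Ppp1r3a: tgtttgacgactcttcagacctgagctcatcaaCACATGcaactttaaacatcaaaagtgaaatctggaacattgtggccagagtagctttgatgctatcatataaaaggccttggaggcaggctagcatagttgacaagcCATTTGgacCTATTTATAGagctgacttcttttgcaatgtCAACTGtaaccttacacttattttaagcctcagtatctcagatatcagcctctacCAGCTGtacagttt
Gys1: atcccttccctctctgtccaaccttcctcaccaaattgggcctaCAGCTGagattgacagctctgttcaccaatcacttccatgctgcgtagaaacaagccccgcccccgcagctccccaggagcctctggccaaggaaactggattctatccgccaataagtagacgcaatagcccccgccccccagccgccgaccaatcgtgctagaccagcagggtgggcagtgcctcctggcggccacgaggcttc
The E-box letters stood in the windows of 8 of the 9 genes, all except Phkb, beside 66.2% of the 32851 windows of all RefSeq starts in the table. The E-box form CAGCTG was in 6 of the 9 genes and in 13% of all windows. The MEF2 motif matched in Phka1 and Ppp1r3a, and in 3.20% of all windows. Of the other motifs searched on both strands, TCAGGTT (3.49% of all windows) matched in none of the 9 genes, nor did AAGGTCA (4.08%), a nuclear receptor motif. The letters TGACGTCA (1.55%), read by CREB factors, and their shorter form TGACGT (6.47%) also had no match there, nor had GTAAACA (3.17%), a forkhead motif. TATAAA matched in 1 gene (12.4% of all windows), CCAAT in 4 (33.8%), GGAAGT in 2 (19.7%) and TAAATA in 4 (12.7%). Some of these motifs overlap, since CAGCTG is an E-box and TGACGT lies inside TGACGTCA. A match describes only these letters in this window. Ugp2 was counted for a motif if either of its 2 windows matched. The Phkg1 window, chr5:129879089-129879338, and the Ugp2 window chr11:21370630-21370879 lie inside the spans of the genes given above. The CAGCTG and TAAATA matches of Ugp2 came from that window only. The windows of Pygm, Ppp1r3c and Phkb overlap the start of their gene spans, and the last marked CAGCTG of Pygm lies inside its span.

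Of 65280 deposited nuclei, 64803 passed the filters of the study on genes and mitochondrial share. The retained 10x libraries held 23327640 to 44389777 UMIs, and the second set held 4765224 to 9088163, so that values from the second set rest on fewer counts. Pairs of 10x libraries shared 30 to 46 cell barcodes, of 10646 to 13036 in each. Myonuclei were grouped by the myosin heavy chain gene that gave at least 60% of at least 5 UMIs of Myh4 (Type IIb), Myh1 (Type IIx), Myh2 (Type IIa) and Myh7 (slow), which uses none of the 9 genes. Type IIb nuclei were the most numerous fibre type in every library, with Actn3 and Mylk4 higher in Type IIb than in slow nuclei and Tnnt1, Myl2, Atp2a2 and Tpm3 higher in slow nuclei. Slow nuclei were numerous enough, at 20 or more, only in the Old and Sedentary 10x libraries and the Young library of the second set. In the second-set Running library only Type IIb reached 20 nuclei by this rule (7 Type IIx, 9 Type IIa and 0 slow). Yet its Type IIa/IIx clusters held 612 nuclei and its slow cluster 96. By myosin 3671 of its nuclei were Type IIb, against 2962 in Type IIb clusters, and 2337 against 1627 in the second-set Young library. Their Type IIb sums therefore also hold nuclei of other clusters. In the second set Myh4 was spread over every nucleus type, with 3332 UMIs per 1000000 in the Young slow nuclei against 262 and 322 in the slow nuclei of the Old and Sedentary 10x libraries, so the 10x values are given beside the pooled ones. The second-set Old library stood apart, with 3577 of its 4772 nuclei in clusters without a name, and 449 Type IIb nuclei. In the 10x Sedentary library 2161 of 10587 nuclei were in unnamed clusters.

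Muscle glycogen phosphorylase followed the fibre type in every library. In Type IIb nuclei Pygm stood at 1933, 1461, 1902 and 1403 UMIs per 1000000 UMIs of the summed nuclei (CPM) in the Young, Old, Running and Sedentary 10x libraries, and at 664, 545, 823 and 632 in the second set. In Type IIx nuclei it was 1063, 582, 1139 and 770 in the 10x libraries and 485, 434 and 331 in the second-set Young, Old and Sedentary libraries. Within each set the Type IIb and Type IIx values did not overlap. Type IIa nuclei held 559, 331, 687 and 455 in the 10x libraries and 265, 281 and 193 in the second set. Slow nuclei held the lowest levels, 203 and 309 in the Old and Sedentary 10x libraries and 78.9 in the second-set Young library. The order Type IIb, Type IIx, Type IIa, slow therefore held in every library with those sums. By edgeR's quasi-likelihood test with the library as a block and Benjamini-Hochberg adjustment over 10715 genes, Pygm was higher in Type IIb than in Type IIx by 1.0 on the log2 scale (SE 0.13, adjusted p = 2.1e-07), than in Type IIa by 1.82 (SE 0.13, adjusted p = 3.2e-13) and than in slow nuclei by 2.65 (SE 0.20, adjusted p = 1.6e-12). The step from Type IIx to Type IIa was 0.82 (SE 0.14, adjusted p = 1.3e-04). In the second set alone Pygm was higher in Type IIb than in Type IIx by 0.75 (edgeR adjusted p = 0.13).

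The 3 subunit genes of phosphorylase kinase stepped down along the same order. Phka1, which encodes the muscle form of the large regulatory subunit, was nearly constant over the Type IIb nuclei of all 8 libraries, with 2423 CPM at the lowest (Running, 10x) and 2980 at the highest (Sedentary, second set). In the 10x Young, Old, Running and Sedentary libraries it fell to 1194, 779, 1106 and 1103 in Type IIx nuclei and to 284, 410, 479 and 601 in Type IIa nuclei. None of these 3 ranges overlapped in the 10x libraries. Type IIa nuclei of the second set, where Myh4 was also high in Type IIa nuclei, held 880, 1312 and 914 in the Young, Old and Sedentary libraries. Phka1 differed between Type IIb and Type IIa by 2.34 (SE 0.16, adjusted p = 1.3e-13) over all libraries and by 2.62 in the 10x libraries alone. Type IIa and slow nuclei overlapped in Phka1, with 497 and 586 in the slow nuclei of the Old and Sedentary 10x libraries and 730 in those of the second-set Young library.

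Phkb, the gene of the other regulatory subunit, read 1432, 1132, 827 and 1374 CPM in the Type IIb nuclei of the Young, Old, Running and Sedentary 10x libraries, and 776, 564, 470 and 818 in their Type IIx nuclei. Its Type IIa nuclei lay in a narrow range of 348 to 456 across both sets. Every library had Phkb in the order Type IIb, Type IIx, Type IIa, and the log2 difference against slow nuclei was 2.19 (SE 0.19, adjusted p = 1.7e-11). Phkg1, which encodes the catalytic subunit of muscle, was also far lower in slow nuclei. Its Type IIb level was 1796 and 1553 in the Old and Sedentary 10x libraries against 178 and 248 in their slow nuclei, and 2616 against 611 in the second-set Young library. The difference was 2.93 (SE 0.20, adjusted p = 9.1e-14), or 3.0 in the 10x libraries alone and 2.45 in the second set alone. Between Type IIb and Type IIx the gap in Phkg1 was smaller, at 0.61 (SE 0.12, adjusted p = 2.5e-04), and in the second-set Old library Type IIx nuclei (2034) stood slightly above Type IIb nuclei (1978).

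**Figure D1:**
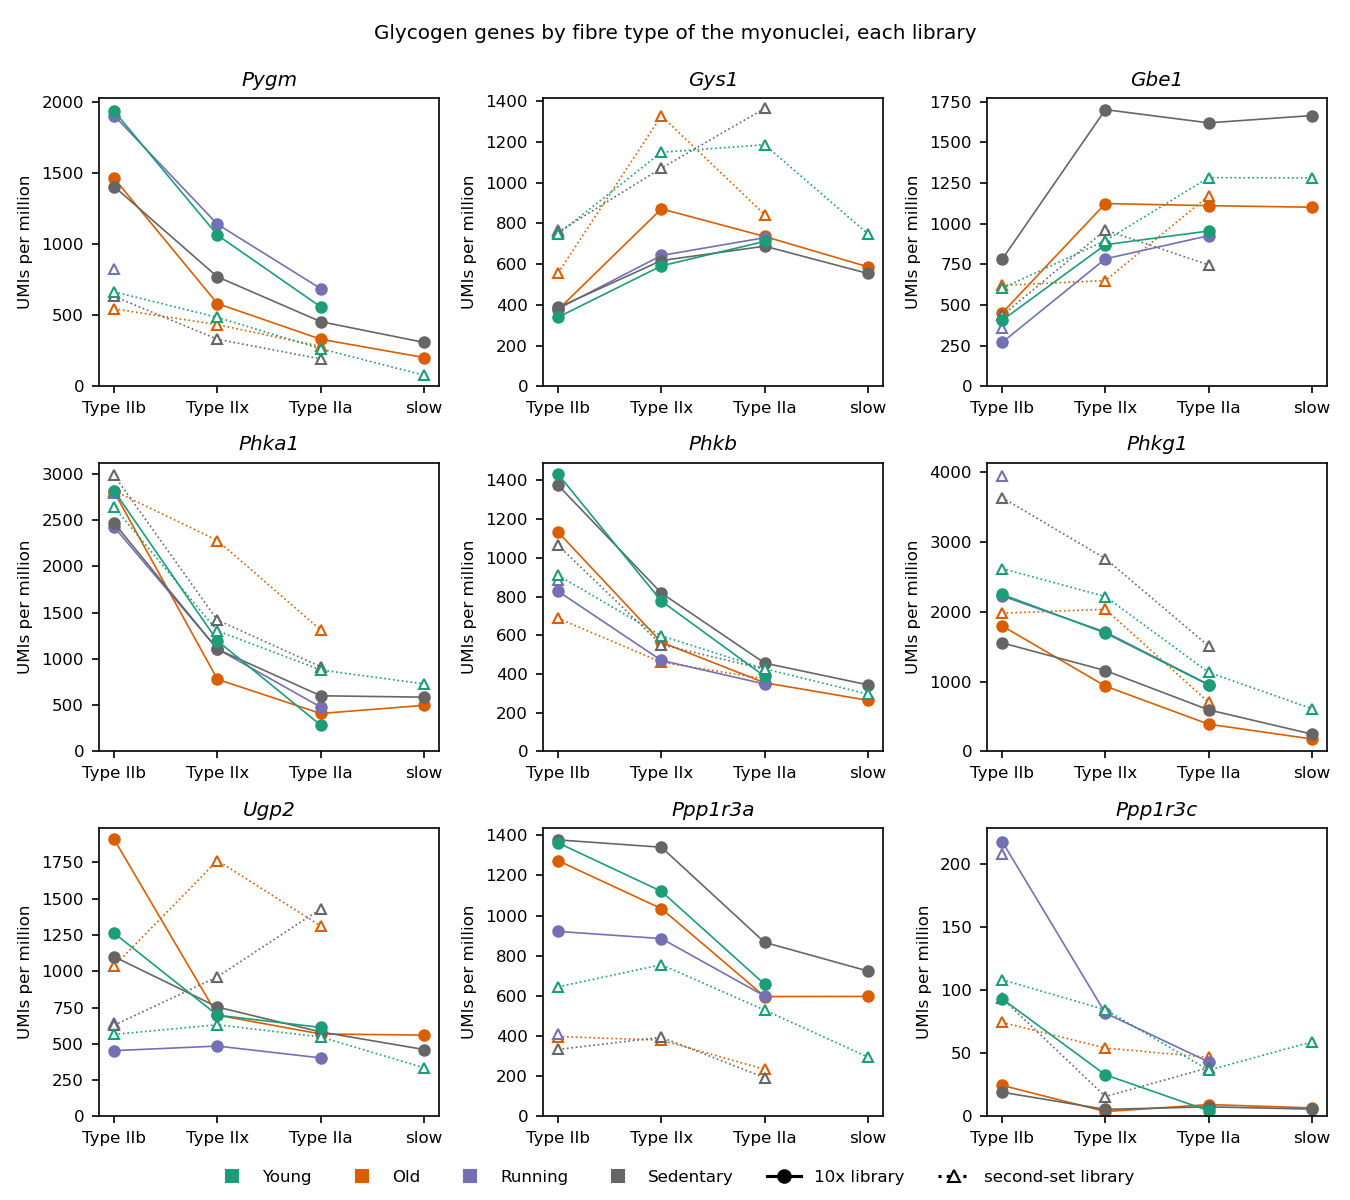
Level of each of the 9 genes (y axis, CPM, linear from 0) in Type IIb, Type IIx, Type IIa and slow myonuclei (x axis), with 1 line per library, coloured by group, filled circles for 10x and open triangles for second-set libraries. Pygm, Phka1 and Phkb step down from Type IIb to Type IIa in all 7 libraries that have the 3 types, while Gys1 and Gbe1 are lowest in Type IIb.

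Glycogen synthase and the branching enzyme ran the other way. Gys1 stood at 340, 377, 382 and 388 CPM in the Type IIb nuclei of the Young, Old, Running and Sedentary 10x libraries. In Type IIx nuclei of the same libraries it was 592, 872, 643 and 618, and in Type IIa nuclei 712, 736, 730 and 689. Each 10x library thus had its lowest Gys1 in Type IIb nuclei, and the Type IIb values of these 4 libraries were close together. The second set held higher values throughout, 749, 557, 770 and 758 in Type IIb nuclei of the Young, Old, Running and Sedentary libraries and 843 to 1365 in Type IIa nuclei. Gys1 was lower in Type IIb than in Type IIx by −0.63 (SE 0.12, adjusted p = 1.7e-04) and than in Type IIa by −0.67 (SE 0.12, adjusted p = 4.4e-05). The second set alone gave −0.58 (edgeR adjusted p = 0.24) and −0.54 (edgeR adjusted p = 0.16) for these comparisons. Against slow nuclei the difference in Gys1 was −0.16 (95% interval −0.51 to 0.19, adjusted p = 0.58) over all libraries. It was −0.42 (adjusted p = 0.023) in the 10x libraries alone and −0.43 (adjusted p = 0.0063) by DESeq2. In edgeR it was −0.41 (adjusted p = 0.041) under RLE scaling and −0.40 (adjusted p = 0.046) with the myosin share raised to 80%. It turned to 0.04 without the Old or the Sedentary 10x library.

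Gbe1 was lower in Type IIb nuclei than in each of the other fibre types in all libraries. It read 406, 451, 270 and 782 CPM in Type IIb nuclei of the Young, Old, Running and Sedentary 10x libraries, 871, 1124, 784 and 1701 in Type IIx nuclei and 955, 1111, 927 and 1620 in Type IIa nuclei. Slow nuclei held 1102 and 1665 in the Old and Sedentary 10x libraries and 1282 in the second-set Young library. The Sedentary 10x library was the highest of the 10x libraries in every fibre type, and its Type IIb value of 782 lay just under the lowest 10x Type IIx value of 784, so the ranges did not overlap. The difference was −0.84 against Type IIx (SE 0.14, adjusted p = 2.9e-05), −0.96 against Type IIa (SE 0.15, adjusted p = 1.5e-06) and −0.86 against slow nuclei (SE 0.19, adjusted p = 7.4e-04). Leaving out the Old 10x library or the Sedentary 10x library took the slow comparison of Gbe1 past the threshold (−0.69, adjusted p = 0.060, and −0.77, adjusted p = 0.074). The 10x libraries alone gave −1.11 against slow nuclei. The second set alone gave −0.44 against Type IIx (edgeR adjusted p = 0.59) and −0.72 against Type IIa (edgeR adjusted p = 0.036). Against its slow nuclei, from 1 library, it gave −0.71. Type IIx and Type IIa nuclei did not differ detectably in Gbe1 (95% interval −0.42 to 0.17), and the slow values lay within their range.

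The opposite directions of these genes set the balance of their UMIs within a nucleus type. Summed over Pygm, Phka1, Phkb and Phkg1, the breakdown genes gave 11.3, 8.68, 11.3 and 5.81 UMIs for each UMI of Gys1 and Gbe1 in the Type IIb nuclei of the Young, Old, Running and Sedentary 10x libraries. In Type IIx nuclei the ratio was 3.23, 1.43, 3.10 and 1.66, and in Type IIa nuclei 1.31, 0.804, 1.49 and 0.912. Slow nuclei stood at 0.676 and 0.670 in the Old and Sedentary 10x libraries. In the second set the ratio ran from 5.05 to 7.48 in Type IIb and from 1.09 to 1.44 in Type IIa nuclei. Type IIb nuclei were above the other types in every library, and the ratio depends on gene length and capture, so only its change between nucleus types is read. It restates the directions of the genes summed and does not stand for all of synthesis. Ugp2, Gyg, Ppp1r3a and Ppp1r3c are left out of it. By the fitted differences given in this report, these genes were higher in Type IIb than in Type IIa nuclei.

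The Type IIb nuclei were not uniform in these genes. The 10x Type IIb nuclei fell into 3 large clusters of 7654, 7260 and 4535 nuclei, found without the 9 genes, of which the smallest was led by Ryr3 and Mss51. In every 10x library that cluster held the most Gbe1 and Gys1 and the least Pygm and Phkg1 of the 3. Gbe1 stood there at 650, 717, 344 and 909 CPM in the Young, Old, Running and Sedentary libraries, against 341, 362, 199 and 532 in the cluster led by Mstn and Pfkfb3. Pygm stood at 1718, 1157, 1778 and 1353 against 2063, 1580, 2129 and 1618. Within a library the cluster values of Gbe1 were in proportion further apart than those of Pygm, and Myh4 was also lower in the cluster led by Ryr3 than in that led by Mstn (7413, 4392, 5758 and 3425 against 8166, 5273, 6919 and 3988). In the Running library the third cluster held less Myh4 (5562) than the cluster led by Ryr3. Over the 10x libraries Myh1, the Type IIx myosin, stood at 249 CPM in the cluster led by Ryr3 against 75.7 and 83.0 in the others, and its part in the Gbe1 and Pygm values was not tested. Ugp2 was among the 10 leading genes of the cluster led by Mstn over the pooled libraries, but was not highest there in every library. In Running it read 459 there against 523 in the cluster led by Ryr3. In Sedentary it read 1186 there against 1292 in the third cluster. Old nuclei exceeded Young nuclei in Ugp2 in each of the 3 clusters (1786 against 966, 1972 against 1328 and 1958 against 1322). These nuclei share 1 library for each group, so the cluster values are a description.

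Ugp2 was the least settled of the 9 genes. Type IIb nuclei held 1262, 1908, 453 and 1100 CPM in the Young, Old, Running and Sedentary 10x libraries, against 697, 698, 485 and 753 in Type IIx nuclei. The Running library was the exception, with Type IIb slightly below Type IIx. In the second set the Old library had more Ugp2 in Type IIx (1763) and Type IIa (1312) than in Type IIb nuclei (1036), and the Sedentary library likewise had 962 and 1429 against 629. Ugp2 was higher in Type IIb than in Type IIa by 0.64 (SE 0.19, adjusted p = 0.0095) and than in slow nuclei by 1.29 (SE 0.28, adjusted p = 5.7e-04), and the 0.46 against Type IIx had an adjusted p of 0.093. The Type IIa call was lost by DESeq2 (0.48, adjusted p = 0.14) and under RLE scaling in edgeR (0.51, adjusted p = 0.054), and also without the Young, Old or Sedentary 10x library (0.50, 0.45 and 0.56, with adjusted p-values of 0.074, 0.066 and 0.070). Conversely, the Type IIx comparison passed the threshold with no filter on low counts (0.51, adjusted p = 0.015). With the myosin share of a fibre type raised to 80% it also passed (0.81, edgeR adjusted p = 0.0013). It passed too without the second-set Young, Old or Sedentary library (0.57, 0.55 and 0.58, with adjusted p-values of 0.029, 0.047 and 0.0201). The 10x libraries alone gave 0.79 against Type IIx and 1.11 against Type IIa, and the second set alone gave −0.31 and −0.29.

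The glycogen-targeting subunits separated from each other. Ppp1r3a, the large subunit of striated muscle that also anchors to the sarcoplasmic reticulum, was at 1362, 1273, 921 and 1377 CPM in Type IIb and at 1121, 1034, 885 and 1340 in Type IIx nuclei of the Young, Old, Running and Sedentary 10x libraries. Each 10x library had the Type IIb value slightly higher, the second-set Young and Sedentary libraries had it lower (645 against 755 and 333 against 394), and the difference of 0.24 (95% interval −0.02 to 0.49, adjusted p = 0.21) did not pass the test. Type IIa nuclei held less, at 658, 597, 599 and 866, and Ppp1r3a was higher in Type IIb than in Type IIa by 0.91 (SE 0.13, adjusted p = 5.9e-07) and than in slow nuclei by 1.25 (SE 0.18, adjusted p = 1.7e-06). Type IIx nuclei exceeded Type IIa nuclei by 0.68 (SE 0.14, adjusted p = 0.0011).

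Ppp1r3c, a smaller targeting subunit also called PTG, was the scarcest of the genes in counts and the most uneven between libraries. In Type IIb nuclei it read 93.2, 24.6, 218 and 19.2 CPM in the Young, Old, Running and Sedentary 10x libraries (2345, 434, 5585 and 165 UMIs). Type IIx nuclei of the same libraries held 33.0, 3.84, 81.9 and 5.56, and Type IIa nuclei 4.51, 9.39, 43.2 and 7.60, of which the Young value rests on 1 UMI and the Old Type IIx value on 5. Type IIb was the highest type in every library, yet the Type IIb value of the Old or Sedentary library lay below the Type IIx value of the Young or Running library. Within libraries Ppp1r3c was higher in Type IIb by 1.54 against Type IIx (SE 0.20, adjusted p = 2.4e-07), 1.94 against Type IIa (SE 0.22, adjusted p = 4.9e-09) and 1.84 against slow nuclei (SE 0.44, adjusted p = 0.0016). The slow comparison rests on 3 to 5 UMIs in each slow sum and was 0.60 (adjusted p = 0.41) without the myonuclear gate.

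Counted together, Type IIb nuclei had 5 of the 9 genes higher and 2 lower than Type IIx nuclei, beside 19.0% of all tested genes called in either direction (10.8% higher and 8.28% lower). Against Type IIa nuclei 7 were higher and 2 lower, where 32.3% of all genes were called (18.1% higher and 14.2% lower). Against slow nuclei 7 were higher and 1 lower (25.3% of all genes called, 13.4% higher and 11.9% lower). Type IIx exceeded Type IIa in 5 genes and was below it in none, where 4.97% of all genes were called (2.17% higher and 2.79% lower). Of the 9 genes, 5 were higher in Type IIx than in slow nuclei (12.5% of all genes called, 5.27% higher and 7.19% lower) and 2, Pygm and Phkg1, were higher in Type IIa than in slow nuclei (5.31% of all genes called, 1.98% higher and 3.33% lower). Pygm exceeded slow nuclei by 0.83 in Type IIa and Phkg1 by 1.31 (adjusted p = 0.0063 and 9.7e-06). Without the Old 10x library only Phkg1 of the 9 passed this comparison, and without the second-set Old library 4 did, with Phkb and Gys1 added. The step of Phkb from Type IIx to Type IIa (0.64, adjusted p = 0.0012) had an adjusted p of 0.0696 without the Sedentary 10x library. The median log2 difference over the 9 genes was 0.61, 1.62 and 1.84 for Type IIb against Type IIx, Type IIa and slow nuclei, where the median over all tested genes was 0.09, 0.09 and 0.09.

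**Figure D2:**
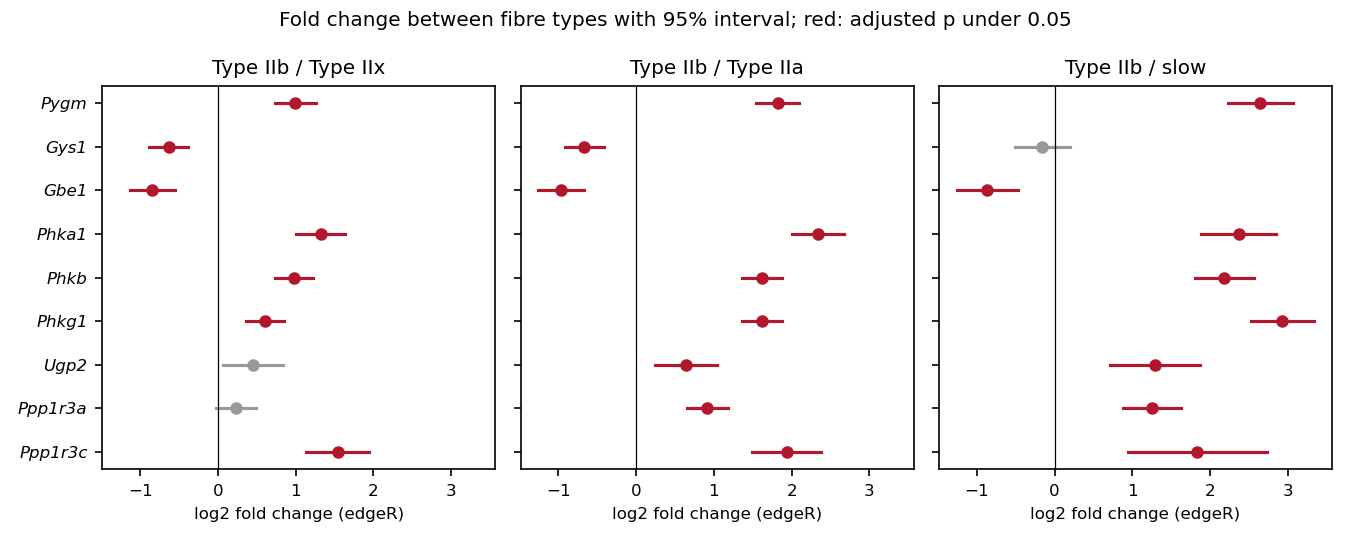
Log2 fold change (x axis) of the 9 genes (y axis) for Type IIb against Type IIx, Type IIa and slow myonuclei, from edgeR with the library as a block; bars are 95% intervals and red marks an adjusted p under 0.05. Phka1, Pygm, Phkb, Phkg1 and Ppp1r3c lie to the right of 0 in each panel and Gbe1 to the left in each.

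The other genes of glycogen metabolism, 28 listed and 21 tested between fibre types, gave 8 higher and 0 lower in Type IIb than in Type IIx nuclei, beside 10.8% and 8.28% of all tested genes. Against Type IIa nuclei 8 were higher and 2 lower (18.1% and 14.2% of all genes), and against slow nuclei 5 were higher and 1 lower (13.4% and 11.9%). Pgm1, a phosphoglucomutase that links glycogen to glycolysis, was higher in Type IIb by 1.10, 1.80 and 2.26 against Type IIx, Type IIa and slow nuclei (adjusted p = 1.5e-06, 5.8e-11 and 4.1e-09). Gyg, the glycogenin on which a new particle starts, was higher by 0.72 and 0.62 against Type IIx and Type IIa nuclei, and Stbd1, a glycogen-binding protein, by 0.98 and 2.71 on low counts. The genes that were lower in Type IIb were Pgm2 (−1.71) and Phkg2, the catalytic subunit known from liver (−0.66), against Type IIa, and Pygb, the brain form of phosphorylase (−3.16), against slow nuclei. Pygb stood at 18.6 and 18.5 CPM in the slow nuclei of the Old and Sedentary 10x libraries and at 0.557 to 2.21 in the Type IIb nuclei of the 10x libraries, so it was higher where Pygm was lowest. It was listed at 0 in the slow nuclei of the second-set Young library.

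Outside the muscle fibre the 9 genes were read against the myonuclear RNA found in the non-muscle classes, called the fibre background here. Whether it came from leaked RNA or from doublets with myonuclei was not tested. Summed myonuclear markers in non-muscle classes of the 10x libraries stood at 7.26% (adipocytes, Young) to 35.6% (mural cells) of their level in the nuclei of Type IIb clusters of the same library. All shares of a Type IIb level by nuclear class are taken against these clusters, not against the Type IIb nuclei set by their myosin genes above. In the second set the same markers stood at 43.6% to 71.8% in adipocytes and fibro-adipogenic progenitors, so the classes are given for the 10x libraries only. Pygm was 8.49%, 8.84%, 11.9% and 12.2% of its Type IIb cluster level in the adipocytes of the Young, Old, Running and Sedentary libraries, against 7.26%, 10.8%, 11.2% and 15.6% for the markers. Its level was therefore near the background there, and the ratio of the 2 shares had medians from 0.94 to 1.17 in the adipocytes, endothelial cells, fibro-adipogenic progenitors, lymphatic endothelial cells, macrophages, muscle stem cells and tenocytes. Phka1 (medians from 0.87 to 1.19 in the same classes) and Phkg1 (0.78 to 1.21) were likewise close to the background.

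Gbe1 and Gys1 were above that background in adipocytes. Gbe1 held 391, 469, 997 and 527 CPM in the adipocytes of the Young, Old, Running and Sedentary 10x libraries, which is 98.7%, 109%, 401% and 70.0% of the Type IIb cluster level of the same library. The excess over the marker share was 4.50-fold at the lowest and 36.0-fold at the highest library. Gys1 held 266, 192, 327 and 157 there, an excess of 2.65- to 10.9-fold. In all the 10x libraries Gbe1 was also above the markers in macrophages (2.26- to 5.0-fold), muscle stem cells (2.07- to 4.51-fold), endothelial cells (1.93- to 2.69-fold) and fibro-adipogenic progenitors (1.69- to 3.09-fold). Ugp2 and Phkb exceeded the markers in each 10x library in adipocytes, endothelial cells, fibro-adipogenic progenitors, macrophages and muscle stem cells, with the highest medians in adipocytes (2.30 and 2.90). Each of the 9 genes had its highest median over the 10x libraries in a myonuclear class. The part of doublets between these nuclei and myonuclei in these levels was not tested for the ratios. The background is scaled to Type IIb clusters, and Gbe1 and Gys1 were higher in the other fibre types. By myosin type the 10x median of Gbe1 was 429 CPM in Type IIb, against 998, 1033 and 1383 in Type IIx, Type IIa and slow nuclei. For Gys1 it was 379 against 631, 721 and 571. The part of RNA from those fibre types in the excess was not tested.

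**Figure D3:**
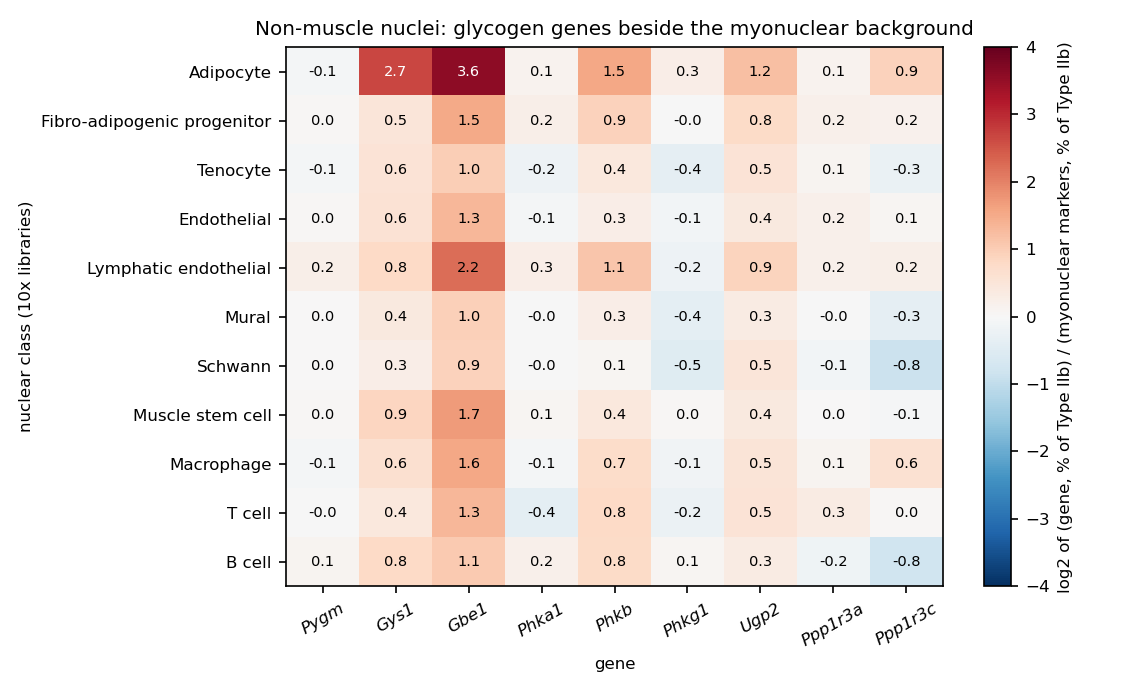
Log2 of the level of each gene as a share of its level in Type IIb clusters over the same share for the summed myonuclear markers (colour and printed value, median over the 10x libraries) in non-muscle nuclear classes (rows) for the 9 genes (columns). Values near 0 are at the level of the fibre background; Gbe1 and Gys1 in adipocytes stand highest, at median ratios of 11.9 and 6.36.

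The isoform in use also differed between classes. Of the phosphorylase UMIs (Pygm, Pygb and Pygl) in the Type IIb clusters of the 10x libraries, 99.9% were Pygm. In adipocytes Pygm gave 40.5% of 2580 UMIs (95% Wilson interval 38.7% to 42.4%), Pygl, the liver form, 35.9% and Pygb 23.6%. The adipocyte share of Pygm is itself near the fibre background, and without the nuclei of highest doublet score its median over libraries was 27.4% in place of 40.1%. Pygb gave 18.8% of 388 phosphorylase UMIs in tenocytes and 4.85% of 577 in the slow cluster class. For the large subunit of phosphorylase kinase, Phka1 gave 98.4% of the UMIs in Type IIb clusters, whereas Phka2, the liver form, gave 41.6% of 3247 in adipocytes and 24.5% of 2310 in macrophages. Macrophages held 167, 164, 177 and 111 CPM of Phka2 in the Young, Old, Running and Sedentary 10x libraries, with no wide spread between them. Gys2, the liver form of the synthase, gave 11% of 1580 synthase UMIs in adipocytes and 0.0696% of 25854 in Type IIb clusters. The Running library supplied 129 of the 174 Gys2 UMIs of adipocytes, and the share ran from 2.55% to 19.6% over the 10x libraries, with a median of 6.86%. The adipocyte share of Ppp1r3b, a targeting subunit best known from liver, likewise ran from 3.92% to 47.1%. Intervals on pooled shares cover counting error only.

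**Figure D4:**
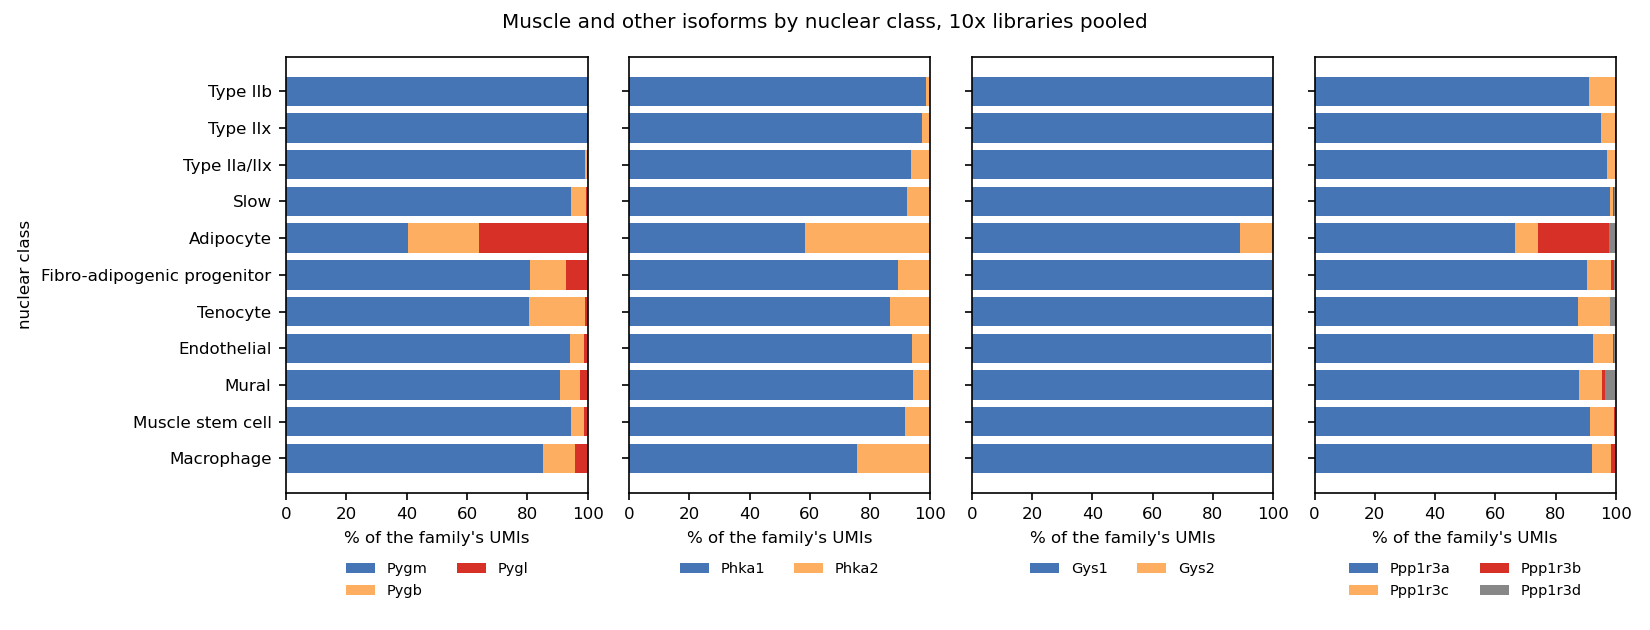
Share of UMIs (x axis, %) of the muscle isoform and its paralogs in 4 families, phosphorylase, the large regulatory subunit of phosphorylase kinase, glycogen synthase and the glycogen-targeting subunits, by nuclear class (y axis), pooled over the 10x libraries. In Type IIb clusters Pygm gives 99.9%, Phka1 98.4% and Ppp1r3a 91.2% of their families, with Ppp1r3c at 8.49%, and adipocytes hold the largest shares of Pygl, Phka2, Gys2 and Ppp1r3b among the classes drawn.

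Between Old and Young muscle the question was whether glycogen genes moved with age. Over all retained nuclei no gene of 20324 passed the test (0.0% called, 557 with an unadjusted p under 0.05), and neither did any of the 9. Pygm stood at 1385 and 523 CPM in the Young 10x and second-set libraries and at 844 and 292 in the Old ones. Both Old values were below the Young value of the same set. The fitted difference of Pygm was −1.14 (95% interval −2.22 to −0.06, edgeR adjusted p = 0.69), and it was −1.81 without the 10x Old library and −0.70 without the second-set Old library. Ppp1r3c read 65.2 and 107 in Young and 14.7 and 77.7 in Old, a difference of −1.76 (95% interval −3.24 to −0.28, adjusted p = 0.69), and the Old value was lower in both sets. Its difference was −1.18 without the Young 10x library and −2.30 without the second-set Young library. Ppp1r3a read 974 and 539 in Young and 796 and 235 in Old (−1.11, adjusted p = 0.69), and −1.78 and −0.62 without the 10x and the second-set Old library.

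The fitted differences over all nuclei ran from −1.76 for Ppp1r3c to −0.11 for Ugp2, with a median of −0.94 where the median over all genes was 0.19, and the direction of some of them depends on the scaling of the libraries. By CPM within a set, Ugp2 was higher in Old in both sets (log2 differences of 0.34 for 10x and 0.11 for the second set), and in the 10x pair Gys1 (0.27) and Gbe1 (0.37) were higher in Old too. The other 6 genes were lower in Old by CPM in both sets. Without the second-set Old library Ugp2 turned to 0.46 and without the Young 10x library to 0.25. The share of nuclei in Type IIb clusters moved along with these values, at 56.5% in Young and 34.8% in Old for 10x and 36.1% and 12.9% for the second set, and its part in the result was not tested over all nuclei. The 12.9% depends on the naming of clusters, since 75.0% of the nuclei of that Old library were unnamed. By myosin it had 449 Type IIb nuclei within myonuclear clusters and 2169 without that gate. Fewer nuclei of a type and less RNA per nucleus cannot be told apart in such sums. Within Type IIb nuclei alone, where 16728 genes were tested and 0.0% were called (722 with an unadjusted p under 0.05), Pygm read 1933 and 664 in Young and 1461 and 545 in Old, a difference of −0.57 (95% interval −1.13 to −0.01, adjusted p = 0.996). Phka1 was level there, at 2814 and 2638 in Young and 2803 and 2815 in Old, and Ugp2 went upward in both sets, from 1262 to 1908 and from 565 to 1036 (0.49, 95% interval −0.40 to 1.38, adjusted p = 0.996). Ppp1r3c in Type IIb nuclei was 93.2 and 108 in Young against 24.6 and 74.6 in Old (−1.54, 95% interval −2.74 to −0.34, adjusted p = 0.996), where the second-set Old value rests on 36 UMIs. With each library left out, these Type IIb differences ran from −0.71 (without the second-set Young library) to −0.36 (without the Young 10x library) for Pygm, from 0.15 to 0.98 for Ugp2 and from −2.00 to −0.89 for Ppp1r3c, with the ends set by the same pair of libraries. DESeq2 also called none of the 9 genes in any of these comparisons.

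**Figure D5:**
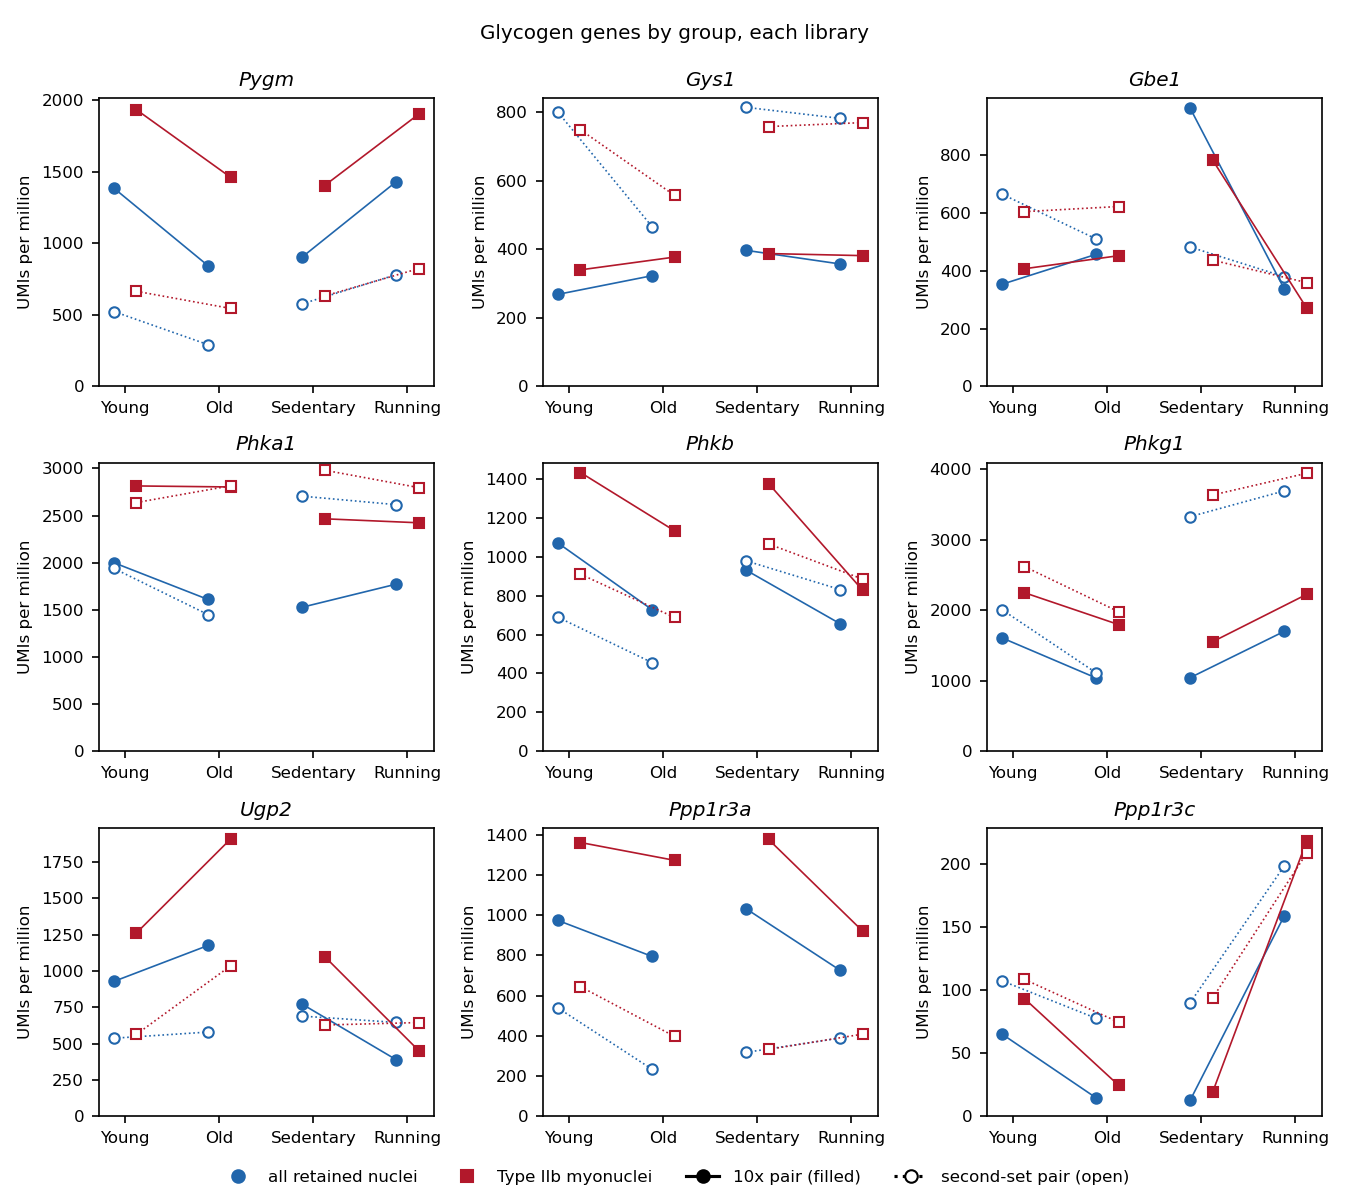
Level of the 9 genes (y axis, CPM, linear from 0) in each library by group (x axis), over all retained nuclei (blue circles) and over Type IIb myonuclei (red squares), with filled symbols and solid lines for 10x and open symbols and dotted lines for second-set libraries of the same set. Ppp1r3c is higher in Running than in Sedentary in both sets and in both kinds of sum, and Phka1 in Type IIb nuclei lies between 2423 and 2980 throughout.

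Between Running and Sedentary muscle again 0.0% of genes were called over all nuclei (98 of 20324 with an unadjusted p under 0.05) and within Type IIb nuclei (237 of 16728). The widest gap among the 9 was that of Ppp1r3c, at 158 and 198 CPM in the Running 10x and second-set libraries against 12.6 and 89.8 in the Sedentary ones. Both Running values were above both Sedentary values. The fitted difference was 2.33 (95% interval 0.78 to 3.87, unadjusted p = 0.0085, edgeR adjusted p = 1.0), made of 3.55 in the 10x pair and 1.13 in the second-set pair. Without the second-set Sedentary library it was 3.48 with an adjusted p of 0.0068, and with the 4 libraries of the comparison alone, which leave 1 residual degree of freedom, it was 2.49 with an adjusted p of 9.2e-09. Without any of the other libraries in turn it lay between 1.42 and 3.05 and did not pass. Within Type IIb nuclei Ppp1r3c read 218 and 208 in Running against 19.2 and 93.7 in Sedentary (2.18, 95% interval 0.99 to 3.36, adjusted p = 1.0), and without the second-set Sedentary library 3.22 with an adjusted p of 0.016.

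Gbe1 leaned the other way, at 338 and 379 CPM in Running against 962 and 482 in Sedentary over all nuclei (−0.96, 95% interval −2.04 to 0.12, adjusted p = 1.0). Both Running values were below both Sedentary values, and the 10x Sedentary library was far above the other 3. With each library left out the difference ran from −1.42 without the second-set Sedentary library to −0.37 without the 10x Sedentary library. In Type IIb nuclei Gbe1 was 270 and 358 in Running and 782 and 436 in Sedentary (−1.06, 95% interval −1.83 to −0.28, adjusted p = 1.0), and −1.59 and −0.34 without the same libraries. Pygm was 1430 and 780 in Running and 903 and 577 in Sedentary over all nuclei, and 1902 and 823 against 1403 and 632 in Type IIb nuclei (0.34, 95% interval −0.22 to 0.89, adjusted p = 1.0). The 10x Running and Sedentary libraries also differed in composition, with 43.7% and 29.3% of nuclei in Type IIb clusters, while the second-set pair did not (70.1% and 70.3%). Over all myonuclei, of 18681 genes tested, 0.0% were called for age and for running alike (637 and 182 with an unadjusted p under 0.05), and none of the 9 was. None of the 9 passed the test of a difference between Type IIb and Type IIx nuclei in the age effect (0.00933% of genes called, 1 of 10715) or in the running effect (0.028%, 3 of 10715), with 201 and 126 genes at an unadjusted p under 0.05.

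Likeness to each of the 9 genes was measured on log2 levels across 94 sums of nuclei by library and nuclear class. The genes that ran most like Phkg1 were Myoz1, Myl1 and Tpm1 (Pearson r = 0.95, 0.92 and 0.91), which encode sarcomere proteins. For Pygm they were Ube2d1, Jph2 and Rbfox1 (0.90, 0.89 and 0.85), and for Phka1 Cmya5, C2cd2 and Trdn (0.90, 0.89 and 0.89). Ppp1r3a ran with Prkaa2, Ttn and Smyd1 (0.87, 0.85 and 0.82), Phkb with B3galnt2, Rbfox1 and Gm26740 (0.88, 0.82 and 0.82), and Gys1 with Ppp1r12b, Ccdc58 and Art1 (0.90, 0.88 and 0.87). The 3 least well matched were Ugp2 with Mylk4, Slc4a4 and Myot (0.76, 0.75 and 0.75), Ppp1r3c with Pvalb, Ldha and Myl1 (0.78, 0.76 and 0.75) and Gbe1 with Mybpc1, Cpeb3 and Thrb (0.75, 0.75 and 0.72). Among the 9 genes themselves Phka1 and Phkg1 ran closest (0.88), while Gbe1 gave −0.07 with Ppp1r3c and −0.04 with Pygm. Pygm with Phkg1 gave 0.57 over all sums and 0.94 over the 10x sums alone, so the pooled value also holds the difference between the library sets. These sums share libraries, depth and fibre background, so the values are a description.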

How the data were processed

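Single-nucleus RNA was measured in 8 libraries of gastrocnemius. The files deposited by the authors hold unscaled UMI counts for each nucleus and gene, made with Cell Ranger 6.1.2 for the 10x libraries and another pipeline for the second set, on mm10. Nuclei with 200 to 6000 genes and at most 6% mitochondrial UMIs were kept, following the study's methods. Nuclei were clustered for each set separately with scanpy 1.11.5 (2000 variable genes without the glycogen genes, 30 components, Leiden resolution 1.0) and named from marker lists. Counts were summed by library and nuclear class, or by fibre type where at least 20 nuclei were present. The sums were scaled to UMIs per 1000000 UMIs (CPM) only to give levels. The unscaled sums were tested with edgeR 4.0.16 (TMM scaling, quasi-likelihood, Benjamini-Hochberg threshold 0.05), by group with the library set as a term, or by fibre type with the library as a block. Type IIx and Type IIa were compared with slow nuclei only after the results were seen. DESeq2 1.42.0, RLE scaling, other filters, other gates, single sets and each library left out were tried as alternatives. Scripts were tested on simulated data.

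The members, the pathway list and the tests were chosen with earlier results of these data known. The 9 genes were always named, the other glycogen genes where they passed the test or are paralogs (some are counted but not reported by name here), and for each of the 9 the 3 genes with the highest r. The Type IIb clusters were chosen for description after their values were seen. Depth was 23327640 to 44389777 UMIs in the 10x libraries and 4765224 to 9088163 in the second set. Scrublet called 2.65% to 4.98% of nuclei as doublets in 3 of the 10x libraries and almost none in the other 5 libraries, so no nuclei were removed as doublets. Within each group the replicate number is the library set, which is what pairs the libraries across groups.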

Additional observations from a re-analysis of the deposited data

How the results depend on the processing

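For age and for running the count of the 9 genes past the threshold was 0, and it stayed at 0 under DESeq2, RLE scaling, no filter on low counts and removal of the nuclei with the highest doublet scores, and without the library set block that pairs the libraries (for Pygm in Old against Young, all nuclei, −1.05 without the block). It became 1 (Ppp1r3c) for running in all nuclei with only the libraries of the comparison, and it ranged from 0 to 1 with each library left out in all nuclei and in Type IIb nuclei, both through the second-set Sedentary library. Between fibre types each library left out gave 7 to 8 genes for Type IIb against Type IIx, 8 to 9 against Type IIa, 7 to 8 against slow, 4 to 5 for Type IIx against Type IIa, 5 to 7 for Type IIx against slow and 1 to 4 for Type IIa against slow. DESeq2 and RLE scaling each gave 7, 8 and 9 genes for Type IIb against Type IIx, Type IIa and slow, and no filter on low counts gave 8, 9 and 8. The second-set libraries alone gave 2 genes for Type IIb against Type IIx, 4 against slow, 1 for Type IIx against Type IIa, 2 for Type IIx against slow and 0 for Type IIa against slow, on fewer nuclei, whereas the 10x libraries alone gave 8, 9 and 9 for Type IIb against Type IIx, Type IIa and slow and 5 for Type IIx against Type IIa. The 2 genes of the second set for Type IIb against Type IIx were Phka1 and Phkb. With the second set alone Ugp2 turned to −0.31 and −0.29 (Type IIb against Type IIx and Type IIa), and Gys1 to 0.26 (Type IIb against slow) and 0.033 (Type IIx against Type IIa). With each library left out, Gys1 ranged from −0.29 to 0.042 (Type IIb against slow, above 0 without the Old or the Sedentary 10x library) and from −0.11 to 0.019 (Type IIx against Type IIa, above 0 without the second-set Sedentary library), and Ugp2 in Old against Young over all nuclei from −1.03 to 0.46, above 0 without the Young 10x (0.25) or the second-set Old library. Without the nuclei of highest doublet score the adipocyte shares fell to 27.4% (Pygm) and 47.1% (Phka1, from 58.5%). The cause of these shifts was not tested. Interactions could not be fitted within 1 set, since no residual degrees of freedom remain.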

Other observations

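Adipocyte nuclei of the Running 10x library held Gys2 and Ppp1r3b, both known from liver, and also Gbe1 at levels that the other 10x libraries did not reach. Gys2, the liver synthase, read 79.8 CPM there (129 UMIs) against 12.1, 5.03 and 16.3 in the Young, Old and Sedentary libraries. Ppp1r3b, a glycogen-targeting subunit best known from liver, read 163 (264 UMIs) against 12.9, 8.94 and 9.30, and Gbe1 997 against 391, 469 and 527. With 1 library in each group these values have no replicate check.

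Specialised myonuclei split the breakdown genes. Neuromuscular junction nuclei of the 10x libraries held 77.1% to 98.4% of the Type IIb cluster level of Pygm but 48.3% to 65.8% of that of Phka1, beside 77.3% to 92.2% for the summed myonuclear markers. Myotendinous junction nuclei held 45.5% to 63.7% of the Type IIb cluster level of Pygm and 109% to 169% of that of Gbe1, beside 93.1% to 104% for the markers. Both classes mix fibre types. Myh1 stood at 300 CPM in the neuromuscular and 738 in the myotendinous cluster, against 75.7 to 249 in the large Type IIb clusters. The part of this mixture in the shares was not tested.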
